A study of Danio rerio with 12 samples.

Results

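Claudins are the transmembrane proteins that form the strands of tight junctions, and their transcripts were followed here in whole zebrafish larvae with and without a functional elmo3 gene. Every listed gene was taken whose symbol, looked up from its Ensembl identifier, begins with cldn, and genes whose symbol begins with cldnd were left out. This gave 39 claudins among the 32520 genes listed. Of these, 31 had enough counts to be tested between genotypes, and the other 8 had at most 11 counts in any sample. Total RNA was sequenced from 12 pools of 30 larvae, all collected 120 hours after fertilization. In 6 of them the larvae were wild type (elmo3+/+) and in 6 they were homozygous knockouts (elmo3-/-). The knockout was made with CRISPR/Cas9 in the reporter line Tg(fli1:EGFP), in which the fli1 promoter drives green fluorescent protein in endothelial cells, so both genotypes share that background. It carries 1 small frameshifting deletion in an early exon of elmo3 and is therefore 1 allele. Elmo3 belongs to a family of adaptor proteins that act with Dock proteins on Rac, a switch of the actin cytoskeleton.

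A claudin crosses the membrane several times, and its extracellular loops pair with those of claudins on the neighbouring cell, which closes the space between cells or leaves a pore for chosen ions. Its cytoplasmic tail usually binds scaffold proteins of the zonula occludens (Tjp) family. Which claudins a cell makes sets how leaky its epithelium is, so skin, gut, kidney tubule, brain vessels and myelin each use their own set. Teleost fish have more claudin genes than mammals, and some of them carry letters in place of numbers. In a pool of whole larvae, fewer cells of a type and less RNA per cell cannot be told apart.

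Total counts were close, from 16851426 to 17577126 per sample, so that a gene with 3 counts is at 0.171 to 0.178 CPM, its count scaled to the total of the sample. Among wild-type samples elmo3+/+ replicate 1 stood apart, with 8.99% of counts from the mitochondrial genes against 6.59% to 7.19% in the others. The elmo3-/- samples ranged from 7.28% to 10.3%. Replicate 1 lay within that range and the other wild-type samples below it. A fit without replicate 1 thus leaves out the wild-type sample most like the knockouts by this measure. The transcript of elmo3 itself was at 44 to 99 counts in elmo3+/+ and 45 to 91 in elmo3-/- (log2 fold change 0.03 ± 0.19 (SE), adjusted p = 0.967, edgeR quasi-likelihood test with Benjamini-Hochberg adjustment), so its level does not check the genotype labels. Across all 21127 genes tested, 21 passed an adjusted p of 0.05, which is 0.0994%.

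The first question was which claudins the larva expresses most. Levels were ranked in TPM, a unit in which counts are divided by transcript length, so that genes can be compared. In elmo3+/+ larvae 14 claudins averaged 10 TPM or more, 16 averaged 1 to 10 TPM, and 9 stayed under 1 TPM, beside a median of 2.60 TPM over all listed genes. The 8 most abundant held 63.2% of all claudin TPM. The sum over the 39 claudins was 380 ± 65.3 TPM (SD, n = 6) in elmo3+/+, with a lowest sample of 301, and 328 ± 46.1 TPM in elmo3-/-, with a highest sample of 404, so the genotypes overlapped.

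cldn1, whose mammalian counterpart seals the epidermis against water loss, stood first. Its level in elmo3+/+ was 49.0 TPM in the lowest sample, 58.4 in the median and 63.2 in the highest, and in elmo3-/- 42.9, 51.1 and 53.7. It was the top claudin in both genotypes, with little spread between pools. cldni came second with 34.01, 39.01 and 49.21 TPM in elmo3+/+ and 30.4, 35.4 and 47.9 in elmo3-/-. In all 6 elmo3+/+ samples cldn1 exceeded cldni (p = 0.0312 by an exact permutation test that flips the signs of the within-sample differences, two-sided, and 6 samples allow no smaller value). After adjustment over the 38 neighbouring pairs in the ranking this was 0.297. The order and its neighbours were taken from the same samples that were tested. The p-values of neighbouring pairs, here and below, thus describe the order and are no independent support for it.

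The next 2 claudins could not be put in order. cldn15la, a fish gene of the intestinal epithelium, spanned 16.5 to 46.0 TPM in elmo3+/+ with a median of 36.1, and 14.2 to 33.9 with a median of 19.7 in elmo3-/-. cldnb, known from the skin and the lateral line primordium of zebrafish, spanned 20.5 to 38.9 TPM with a median of 30.1 in elmo3+/+. In elmo3-/- it spanned 22.4 to 40.2 TPM with a median of 24.8. cldn15la was above cldnb in 3 of 6 elmo3+/+ samples (exact permutation test, p = 0.969), and cldnb took the third place in elmo3-/-. cldnb in turn exceeded the fifth gene, cldne, in all 6 elmo3+/+ samples (p = 0.0312 by the same exact test, 0.297 adjusted).

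Ranks 5 to 7 lay within each other's spread. cldne, a gene of the outer layers of the zebrafish skin, averaged 21.2 ± 6.51 TPM (SD, n = 6) in elmo3+/+, with a range of 16.1 to 33.1, and ran from 12.2 to 27.0 with a median of 16.3 in elmo3-/-. cldn7a averaged 20.8 ± 2.28 TPM, with a range of 17.6 to 23.5, and ran from 17.9 to 25.5 with a median of 23.2 in elmo3-/-. cldn7b, the other zebrafish copy of the claudin that binds EpCAM in mammals, averaged 20.5 ± 6.58 TPM with a range of 13.0 to 30.3 in elmo3+/+, and ran from 11.1 to 25.2 with a median of 16.1 in elmo3-/-. The means of the 3 genes were almost equal, yet cldn7a varied far less between pools than cldne and cldn7b. cldn19, found in Schwann cells and kidney tubules of mammals, closed the first 8 with 12.1, 18.0 and 20.9 TPM as lowest, median and highest value in elmo3+/+ and 10.5, 13.0 and 17.8 in elmo3-/-. It exceeded the ninth gene in all 6 elmo3+/+ samples (exact permutation test, p = 0.0312, 0.297 adjusted).

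Of the 38 neighbouring pairs, 4 kept their order in all 6 elmo3+/+ samples, and no pair passed after adjustment, which 6 samples could only reach if many more pairs did so. Over all 12 samples the claudins were ordered again by their means, so some neighbouring pairs were others. Of those pairs 9 passed and 3 kept their order throughout, with 0.00618 as the smallest adjusted p of the exact test. The order itself was nearly the same in the other genotype, with a Spearman coefficient of 0.989 across the 39 genes, which are not independent replicates. Without division by length it changed at the top. By CPM cldni stood first, cldn12 second and cldn1 seventh. Each TPM of cldn1 came from 6.42 counts and each TPM of cldn12 from 49.5 counts.

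**Figure D1:**
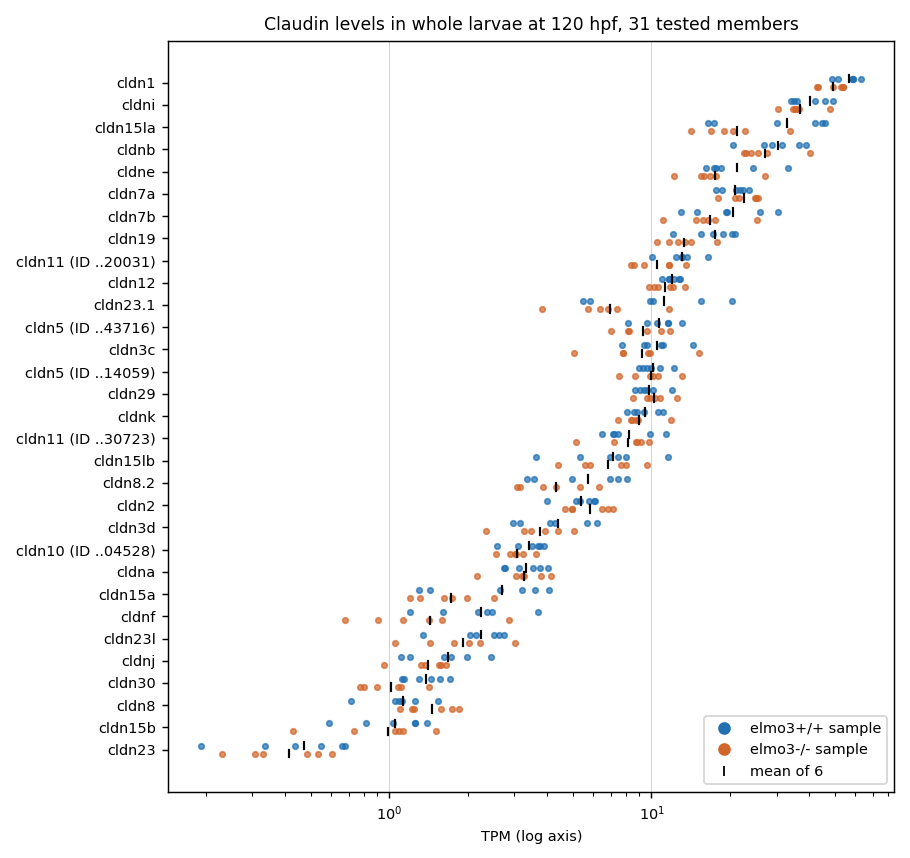
Level of each of the 31 tested claudins in TPM on a log axis, ordered by mean in elmo3+/+. Points are the 6 samples of each genotype and black bars are means. The genotypes overlap for every gene, and cldn15la and cldn23.1 spread more widely in elmo3+/+ than cldn1 or cldn12.

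Below the first 8 the family formed a long, closely spaced tail. Between 10 and 14 TPM lay one cldn11 gene (ENSDARG00000020031) at 13.1 ± 2.04 TPM (SD, n = 6 elmo3+/+ samples), a claudin that forms myelin junctions in mammals. cldn12 followed at 12.01 ± 0.687 TPM, and cldn23.1 at 11.2 ± 5.77 TPM. These neighbours had similar means with very unequal spread, since cldn23.1 ran from 5.47 to 20.4 TPM and cldn12 from 11.01 to 12.80. Both genes with the symbol cldn5, the claudin of endothelial cells and the blood-brain barrier, had nearly the same level, 10.7 ± 1.70 TPM (ENSDARG00000043716) and 10.1 ± 1.18 TPM (ENSDARG00000014059). The symbol table gives the 2 zebrafish copies of cldn5, cldn10 and cldn11 a single symbol each, so which is the a and which the b copy is not named here. cldn3c at 10.5 ± 2.27 TPM, related to a barrier-forming claudin of mammals, lay between them.

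cldn29 (9.80 TPM) and cldnk (9.41 TPM) came next. cldnk is the claudin of myelinating glia in zebrafish, and it ranged from 8.09 to 11.1 TPM in elmo3+/+ with a median of 9.10, and from 7.47 to 11.9 TPM with a median of 8.56 in elmo3-/-. The second cldn11 gene (ENSDARG00000030723) averaged 8.23 TPM in elmo3+/+, cldn15lb 7.15 TPM and cldn8.2 5.72 TPM. cldn2, whose mammalian counterpart forms a pore for cations and water, averaged 5.40 TPM. Every other tested member was under 5 TPM. cldn15a, which is required for a single gut lumen in zebrafish, was at 2.70 ± 1.14 TPM and so ranked only 24th per length, but 14th by CPM, since each of its TPM came from 79.8 counts.

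The 8 untested claudins were cldng, cldn10d, cldn10e, cldn10l2, cldn18, cldn26, cldn33b and the second cldn10 gene. 3 of them never exceeded 3 counts in any sample. These were cldn10e with at most 1 count, cldn18, a claudin of lung and stomach in mammals, with at most 2, and cldn10l2 with at most 3. cldn10l2 had a count in 10 of 12 samples, cldn10e in 4 and cldn18 in 2. The gene with the symbol cldnd, which the naming rule left out together with the claudin domain genes, had 0 to 3 counts in elmo3+/+ and 0 to 1 in elmo3-/-.

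The claudins include runs of tandem genes. In the RefSeq annotation, used here for gene order only, cldn3c, cldn3d, cldnb, cldn29 and cldn30 stand in one run of adjacent claudins, which also holds cldnd and a gene named cldn28 that is no member here, and cldnj, cldne, cldnf and cldna in another. Levels within a run were far apart. Among the members in the first run they went from 1.37 TPM for cldn30 to 30.5 TPM for cldnb, and in the second from 1.68 TPM for cldnj, a gene of the zebrafish inner ear, to 21.2 TPM for cldne. None of the 31 claudins that RefSeq places lies on the chromosome of elmo3, and 8 could not be placed.

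The second question was whether the loss of Elmo3 changed claudin transcripts. No claudin passed the test, 0 of 31 at an adjusted p of 0.05 beside 0.0994% of all genes (edgeR). Adjusted p-values ran from 0.499 to 0.987. Without adjustment 6 of 31 had a p under 0.05, where 9.52% of all genes tested did, and 5 of the 6 were lower in elmo3-/- (4.95% of all genes) and 1 was higher (4.58%). Without elmo3+/+ replicate 1 the count stayed at 6 of 31, beside 14.5% of all genes. By DESeq2 0 of 31 passed as well, beside 49 of all 21127 genes. Before adjustment 5 of 31 were under 0.05 in that fit, beside 9.325% of all genes. In no claudin were the genotypes' TPM values free of overlap, against 0.412% of all genes.

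The estimates nonetheless leaned to one side. The log2 fold change, elmo3-/- over elmo3+/+, was below 0 for 23 of 31 claudins, where 48.9% of all genes were below 0, and its median was -0.13 against 0.00 for all genes. It ran from -0.59 for cldnf to 0.44 for cldn8. This lean depended on the model. With 1 surrogate variable, an estimated axis of unexplained variation, added to the fit, 13 of 31 were below 0 and the median was 0.04. Among the claudins whose estimates changed sign were cldn15la, cldnb, cldne, cldni and cldn7b. The estimate of cldn15a went from -0.57 to -0.007. In the other fits 23 to 27 of 31 were below 0. The variable ran from -0.462 to 0.274 in elmo3+/+ and from -0.116 to 0.409 in elmo3-/-. Whether it holds part of the genotype difference was not tested. Claudins share tissues, tandem neighbours and pools, so the 31 are not independent of each other.

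The 6 claudins with the smallest p-values were small or moderate differences. cldn19, with the values given above, was lower by a log2 fold change of -0.31 ± 0.12 (SE), a ratio of 0.804 with a 95% interval of 0.670 to 0.965 (adjusted p = 0.499, edgeR). The cldn11 gene ENSDARG00000020031 had 10.03, 13.09 and 16.36 TPM as lowest, median and highest value in elmo3+/+ and 8.38, 10.5 and 13.5 in elmo3-/-, and its log2 fold change was -0.25 ± 0.11 (adjusted p = 0.506). Both are claudins of myelin-forming or tubule cells in mammals, and in both the samples of the genotypes overlapped. The other cldn11 gene (ENSDARG00000030723) was not lower, with a log2 fold change of 0.05 ± 0.13 (SE, adjusted p = 0.922, edgeR).

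The 2 intestinal claudins gave larger estimates with wider errors. cldn15la had a log2 fold change of -0.55 ± 0.25 (SE), a ratio of 0.681 with an interval of 0.471 to 0.984 (adjusted p = 0.512). cldn15a had 1.30, 2.92 and 4.05 TPM in elmo3+/+ and 1.198, 1.671 and 2.514 in elmo3-/-, with a log2 fold change of -0.57 ± 0.25 (adjusted p = 0.506). For both genes elmo3+/+ replicates 1 and 3 lay low within the elmo3-/- range, as did replicate 6 at its upper end for cldn15la, and elmo3-/- replicate 5 was the highest knockout sample.

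cldn30 and cldn8 are scarce claudins. cldn30 had 1.12, 1.37 and 1.70 TPM in elmo3+/+ and 0.769, 0.987 and 1.41 in elmo3-/-, with a log2 fold change of -0.38 ± 0.18 (SE). cldn8, related to a barrier claudin of the mammalian collecting duct, had 0.717, 1.11 and 1.53 TPM in elmo3+/+ and 1.10, 1.41 and 1.85 in elmo3-/-, with 0.44 ± 0.20, and was the largest estimate above 0. The adjusted p was 0.520 for each (edgeR).

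Among the 8 most abundant claudins, all intervals except that of cldn15la lay within 0.5 to 2. The interval of cldn15la, 0.471 to 0.984, reached below 0.5, and that of cldn19 was 0.670 to 0.965. cldni had a ratio of 0.955 with an interval of 0.834 to 1.09, and cldn1 0.919 with 0.814 to 1.04. cldn12, ranked 10th by TPM, had 0.986 with 0.907 to 1.07. cldnb and cldne had ratios of 0.934 and 0.867, with intervals of 0.759 to 1.15 and 0.678 to 1.11. cldn7a had 1.15 (0.972 to 1.35) and cldn7b 0.860 (0.664 to 1.11). Over the 31 claudins, 18 intervals lay within a 1.5-fold change in either direction and 28 within 0.5 to 2, so for the remaining genes larger differences are not excluded by these samples. The 25 claudins with a p above 0.05 included 18 estimates below 0 and 7 above.

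**Figure D2:**
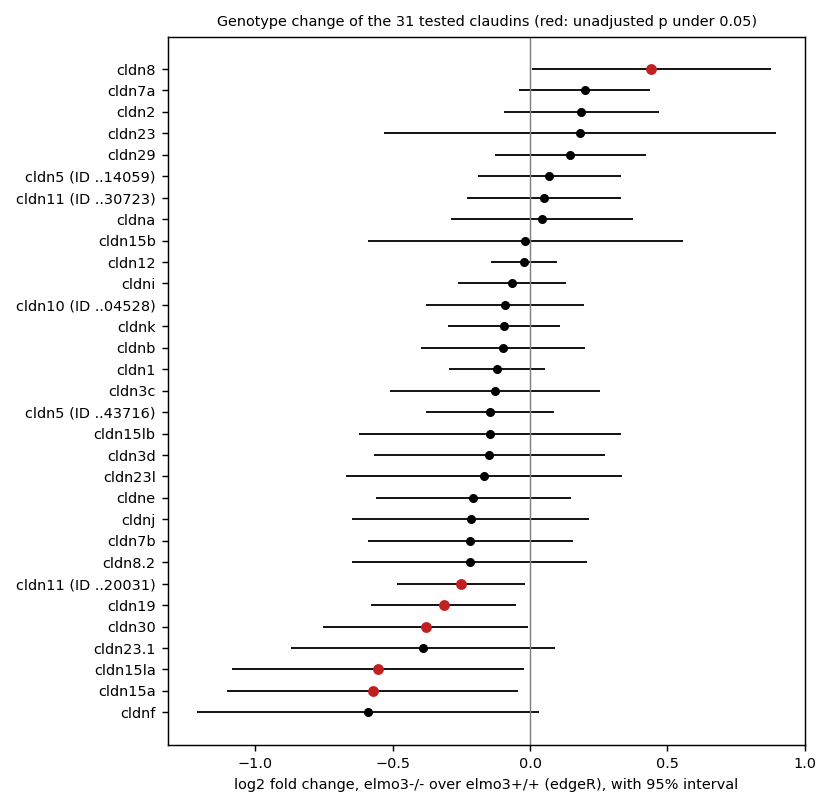
Log2 fold change of the 31 tested claudins, elmo3-/- over elmo3+/+, from edgeR, with 95% intervals and sorted by estimate. The vertical line marks no difference, and red points are the 6 claudins with an unadjusted p under 0.05, of which 5 lie below 0. None passed after adjustment.

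Pools of one genotype differed widely in their claudins. The coefficient of variation of TPM had a median of 21.9% over the 31 claudins in elmo3+/+ and 21.1% in elmo3-/-, where the 17171 tested genes within the same range of mean counts had medians of 15.3% and 17.8%. It ran from 5.72% for cldn12 to 51.6% for cldn23.1 in elmo3+/+, and from 10.3% for cldn1 to 54.4% for cldnf in elmo3-/-. These are descriptions, since the genes share their pools.

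A few pools were at the ends for many claudins. In elmo3+/+, replicate 4 was the highest sample for 15 of 31 claudins (29.0% of all tested genes) and replicate 3 the lowest for 15 (21.3%). In elmo3-/-, replicate 4 was the highest for 16 (27.5%) and replicate 2 the lowest for 19 (36.3%). For elmo3+/+ replicate 1 the share was near that of all genes, as it was the lowest sample for 8 of 31 claudins and 27.8% of all genes. Some pools were at an end for fewer claudins than all genes. elmo3+/+ replicate 3 was the highest for 0 of 31 (20.6% of all genes) and elmo3-/- replicate 6 for 2 (29.1%). Summed claudin TPM was 459 and 448 in elmo3+/+ replicates 4 and 2 and 301 and 315 in replicates 3 and 1, and 404 in elmo3-/- replicate 4 against 271 in replicate 2. Claudins without this pattern existed as well. cldn7a was lowest, not highest, in replicate 4 of both genotypes.

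**Figure D3:**
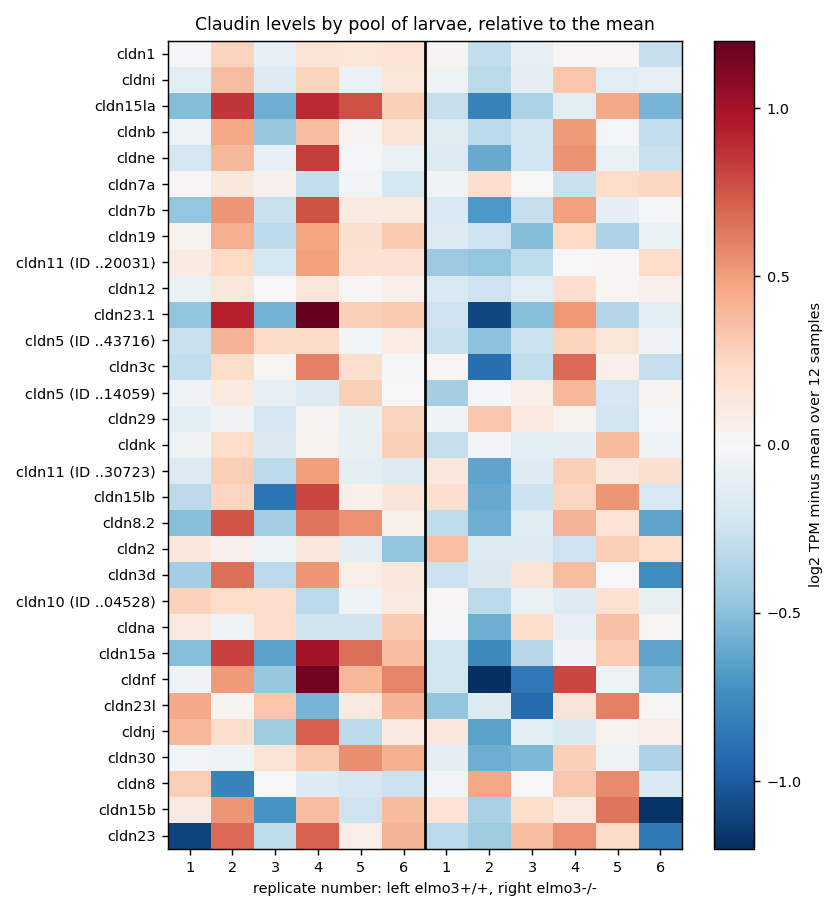
Log2 TPM of each tested claudin in each pool, minus its mean over the 12 samples, with elmo3+/+ replicates 1 to 6 left of the line and elmo3-/- replicates 1 to 6 right of it. Single columns carry much of the colour. Replicate 4 of both genotypes and elmo3+/+ replicate 2 are red for many claudins, and elmo3-/- replicate 2 is blue.

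Claudins with a known tissue were then set against markers of that tissue, in 9 relations across the samples. For the gut, 7 enterocyte genes were summed, among them fabp2, a fatty acid carrier, and vil1, a protein of the microvilli. The highest counts in the sum were those of apoa1a and chia.2, with 2425 to 13607 and 4821 to 12241 in elmo3+/+. There fabp2 had 2407 to 6833 counts and vil1 902 to 2984. Over the 12 samples cldn15la gave r = 0.93 with this sum (permutation test, p = 0.00011, adjusted 0.00099; rho = 0.78, p = 0.00433, adjusted 0.0195), and r = 0.88 without the 2 samples farthest from the median. cldn15a gave r = 0.89 (permutation p = 0.00028, adjusted 0.00126; rho = 0.78, p = 0.00404, adjusted 0.0195), and r = 0.84 without them. Within elmo3+/+ r was 0.97 for cldn15la and 0.95 for cldn15a (exact permutation over 6 samples, p = 0.0153 and 0.0167, both 0.0750 after adjustment), and within elmo3-/- it was 0.80 and 0.70 (p = 0.0639 and 0.114). The samples lay unevenly along the sum. In 5 of them, elmo3+/+ replicates 2, 4, 5 and 6 and elmo3-/- replicate 5, it was 1359 to 2065 CPM, with cldn15la at 19.00 to 28.32 CPM. In the other 7 it was 503 to 959 CPM, with cldn15la at 9.33 to 14.2 CPM. The same 5 samples were also the highest for summed hepatocyte, exocrine pancreas and kidney tubule genes. The hepatocyte sum, for instance, was 520 to 1095 CPM in them and 128 to 420 CPM in the other 7. Whether the relation is particular to enterocyte genes was not tested.

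The enterocyte markers also differed between genotypes by estimate. All 7 were lower in elmo3-/- by estimate, with a median log2 fold change of -0.68. Of them 4 had an unadjusted p under 0.05, where 9.52% of all genes did, and none passed adjustment (smallest adjusted p = 0.499, edgeR). Their summed level ran from 660 to 2065 CPM with a median of 1506 in elmo3+/+, and from 503 to 1543 CPM with a median of 697 in elmo3-/-. Genes of other digestive organs had the same sign, with 4 of 4 hepatocyte genes (median -1.28) and 3 of 3 exocrine pancreas genes (median -0.67) below 0 and none past adjustment. Before adjustment 4 of 4 hepatocyte and 0 of 3 exocrine pancreas genes had a p under 0.05 (edgeR), beside 9.52% of all genes. The sign was not particular to digestive organs. Below 0 were also 6 of 7 ionocyte genes (median -0.42), 4 of 5 inner ear genes (-0.26) and 5 of 8 kidney tubule genes (-0.13). Of the muscle and neuron genes 2 of 5 and 0 of 4 were below 0. The part of these tissues in the claudin estimates was not tested.

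**Figure D4:**
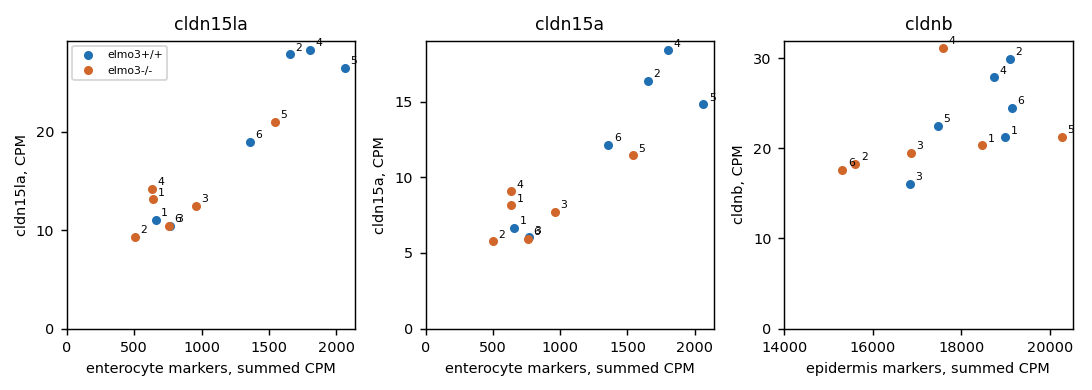
CPM of cldn15la, cldn15a and cldnb against the summed CPM of marker genes of enterocytes or epidermis, 1 point per sample with its replicate number. In both left panels 5 samples stand apart at high enterocyte marker levels, 4 of them elmo3+/+. The epidermis axis does not start at 0, and cldnb of elmo3-/- replicate 4 lies above all other samples.

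For the skin no relation passed adjustment. The sum of 8 epidermal genes, mainly keratins, differed little between pools. cldnb gave r = 0.55 with it over 12 samples (permutation test, p = 0.0668, adjusted 0.1503; rho = 0.66, p = 0.0233, adjusted 0.0524), and r = 0.34 without the 2 samples farthest from the median marker level. Within the genotypes r was 0.77 in elmo3+/+ (p = 0.0750) and 0.40 in elmo3-/- (p = 0.442), both by exact permutation over 6 samples. cldni gave r = 0.43 (permutation p = 0.164, adjusted 0.247) and rho = 0.45 (p = 0.139, adjusted 0.251), and r = 0.15 without the 2 farthest samples. cldn7b gave r = 0.36 (permutation p = 0.247, adjusted 0.318) and rho = 0.40 (p = 0.202, adjusted 0.260), and r = 0.13 without them. Within elmo3+/+ and elmo3-/- cldni had r = 0.69 and 0.21 and cldn7b 0.35 and 0.27, with exact permutation p-values of 0.143 to 0.715. The epidermal genes had a median log2 fold change of -0.02 between genotypes, with 5 of 8 below 0 and none past adjustment.

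Of the 7 relations outside the gut, 1 passed adjustment by r, that of a cldn5 gene with endothelial genes. Which zebrafish copy of cldn5 it is was not settled here, and the relation was added after the files were read. cldn5 (ENSDARG00000043716) ran from 8.15 to 13.0 TPM with a median of 11.001 in elmo3+/+ and from 6.99 to 11.8 with a median of 8.90 in elmo3-/-, and the genotypes overlapped. Against the sum of 5 endothelial genes it gave r = 0.70 over 12 samples (permutation test, p = 0.0113, adjusted 0.0338; rho = 0.69, p = 0.0169, adjusted 0.0509). The largest part of this sum was fli1, with 1146 to 2139 counts in elmo3+/+ and 955 to 1266 in elmo3-/-. The next largest, cdh5, had 496 to 568 and 488 to 684. The relation with single endothelial genes was not tested. Without the 2 samples farthest from the median, elmo3+/+ replicates 2 and 4, r was 0.51 (permutation test, p = 0.134), and without elmo3+/+ replicate 1 it was 0.69 (p = 0.0188). Within elmo3+/+ r was 0.61 (p = 0.210) and within elmo3-/- 0.73 (p = 0.0972) by exact permutation. The other cldn5 gene (ENSDARG00000014059) ran from 8.93 to 12.2 TPM with a median of 9.81 in elmo3+/+ and from 7.52 to 13.1 with a median of 10.01 in elmo3-/-. It gave r = 0.31 (permutation p = 0.334, adjusted 0.334) and rho = 0.13 (p = 0.682, adjusted 0.682), with r = 0.33 without the 2 farthest samples, 0.76 within elmo3+/+ and 0.32 within elmo3-/- (exact permutation, p = 0.107 and 0.556). Its genotype estimate was a log2 fold change of 0.07 by edgeR, -0.03 by limma on log2(TPM + 1).

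For myelin, cldnk gave r = 0.52 with 6 genes of myelinating glia (permutation over 12 samples, p = 0.0907, adjusted 0.163; rho = 0.42, p = 0.177, adjusted 0.260), 0.50 without the 2 farthest samples, 0.03 within elmo3+/+ and 0.67 within elmo3-/- (exact permutation over 6 samples, p = 0.940 and 0.165). cldn19 gave r = 0.32 with the same genes (permutation p = 0.324, adjusted 0.334; rho = 0.31, p = 0.333, adjusted 0.374), 0.36 without the 2 farthest samples, -0.04 within elmo3+/+ and 0.43 within elmo3-/- (exact permutation, p = 0.917 and 0.411). The sum of the myelin genes hardly varied, from 260 to 290 CPM in elmo3+/+ and from 233 to 281 CPM in elmo3-/-, so a relation with it could not be well resolved. cldnk differed between genotypes by a log2 fold change of -0.09 ± 0.10 (SE, adjusted p = 0.758, edgeR). Of the 6 myelin genes 2 were below 0 and 4 above, with a median log2 fold change of 0.02 and none past adjustment.

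Related claudins were next compared within each sample, in 7 pairs that were chosen after their values had been seen and are therefore given with no test. In all 12 samples cldn15la was more abundant than cldn15lb, cldn15a than cldn15b, cldn3c than cldn3d, and cldn8.2 than cldn8. The log2 TPM ratio of cldn15la over cldn15lb was 2.15 ± 0.34 (SD, n = 6) in elmo3+/+, with a lowest sample of 1.68, and 1.61 ± 0.16 in elmo3-/-, with a highest sample of 1.80. Thus 4 of 6 elmo3-/- samples lay below every elmo3+/+ sample. cldn15lb itself had a log2 fold change of -0.15 in counts, and its counts per TPM were 0.892 times as high in elmo3-/-, so part of the shift in the TPM ratio is not in the counts.

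In the other pairs the ratio moved within a wide spread. The cldn11 genes had a log2 TPM ratio of 0.68 ± 0.16 in elmo3+/+ and 0.38 ± 0.25 in elmo3-/-, with 4 elmo3-/- samples below every elmo3+/+ sample. cldn7a over cldn7b was 0.08 ± 0.55 in elmo3+/+ and 0.46 ± 0.53 in elmo3-/-, and its sign differed between pools, with 3 of 6 elmo3+/+ samples above 0. The 2 cldn5 genes had 0.07 ± 0.30 and -0.11 ± 0.30, and cldn3c over cldn3d had 1.27 ± 0.26 and 1.24 ± 0.46. In the last pairs the genotypes overlapped as well, with 1.21 ± 0.51 and 0.79 ± 0.33 for cldn15a over cldn15b and -2.20 ± 0.83 and -1.49 ± 0.37 for cldn8 over cldn8.2.

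**Figure D5:**
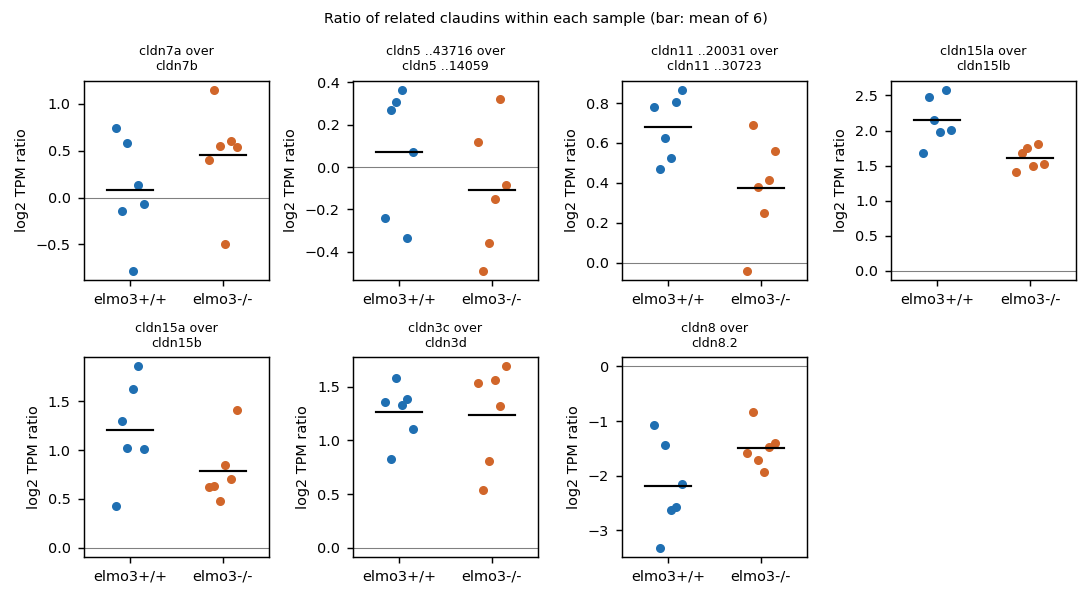
Log2 TPM ratio of 7 pairs of related claudins within each sample, with black bars at the mean of 6. The grey line marks equal levels. For cldn15la over cldn15lb, 4 elmo3-/- samples lie below all elmo3+/+ samples, and for cldn7a over cldn7b each genotype has samples on both sides of equality.

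Last, the claudins were set beside the proteins they work with, on a list of 57 other tight junction genes. Of these 55 were tested and 1 passed, beside 0.0994% of all genes, and their median log2 fold change was -0.03. The gene was magi2 (ENSDARG00000073769), a scaffold protein with several PDZ domains that is known from the podocyte slit diaphragm in mammals. It ran from 1.03 to 1.99 TPM in elmo3+/+ and from 2.33 to 4.84 TPM in elmo3-/-, so every knockout sample exceeded every wild-type sample. Of all genes tested, 0.412% had TPM values free of overlap. It was higher by a log2 fold change of 1.07 ± 0.12 (SE, adjusted p = 0.000963, edgeR). Whether this gene lies on the chromosome of elmo3 was not examined here. A second gene with the symbol magi2 (ENSDARG00000021590) had a log2 fold change of 0.04 ± 0.09 (adjusted p = 0.899).

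By class, 13 of 20 scaffold genes were above 0 (median 0.04), with magi2 the only one past adjustment. The scaffold patj, a partner of the Crumbs complex, had the next smallest p there (log2 fold change -0.19 ± 0.08, adjusted p = 0.499). Among membrane proteins other than claudins 13 of 23 were below 0 (median -0.06) and none passed. marveld1 had -0.34 ± 0.20 and marveld3 -0.53 ± 0.34 (adjusted p = 0.601 and 0.615). marveld3, a relative of occludin, ran from 2.17 to 3.69 TPM in elmo3+/+ and from 0.326 to 1.60 TPM in elmo3-/-, with no overlap, while its counts of 10 to 30 and 5 to 22 did overlap. Its counts per TPM were 2.19 times as high in elmo3-/-, whereas for the claudins this factor stayed between 0.892 and 1.21. At its upper end cldn23, a scarce claudin, had a log2 fold change of 0.18 in counts but a ratio of mean TPM of 0.874, and cldn23.1 had ratios of 0.763 in counts and 0.622 in TPM.

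Of the polarity genes 9 of 12 were below 0 (median -0.05) and none passed, with crb2a at 0.31 ± 0.11 and pard6g at 0.17 ± 0.08 as the smallest p-values (adjusted p = 0.499 and 0.545, edgeR). For the neighbouring adherens junction 11 of 15 genes were below 0 (median -0.07) and none passed. The smallest p-values belonged to ctnnb2, a beta-catenin (-0.19 ± 0.06, adjusted p = 0.489), and afdn, an actin-binding linker of nectins (0.18 ± 0.07, adjusted p = 0.499).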

How the data were processed

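Pools of 30 zebrafish larvae were snap frozen, and their RNA, purified on columns, was sequenced on a BGISEQ-500. The submitters' processing notes name Trim Galore 0.6.4, kallisto 0.4.6 and GRCz11 without order. For each sample the authors deposited estimated counts per gene, not scaled between samples (63.0% exactly whole, with no tolerance; rounded here). The authors also deposited TPM values, in which counts had been divided by transcript length and scaled to a common total. Symbols were found for 29201 identifiers (89.8%). Names with no match were looked up without a final a or b.

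Counts were fitted with edgeR 4.0.16 (R 4.3.3; TMM, filterByExpr, quasi-likelihood, genotype alone, Benjamini-Hochberg over 21127 genes). The study gives no tool for single genes. Standard errors are the log2 fold change divided by the root of F, and 95% intervals use the test's degrees of freedom. Ranks used log2(TPM + 0.1). Relations used log2 CPM with 100000 permutations over 12 samples, or all pairings within 6. Scripts were tested on simulated data. The alternatives were DESeq2 1.42.0, upper-quartile and total count scaling, 2 other filters, the replicate block, 1 surrogate variable (sva 3.50.0), limma 3.58.1 on log2 TPM, and leaving out elmo3+/+ replicate 1.

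Members and lists were chosen with earlier results of these data known. Named with values were the 8 most abundant claudins in elmo3+/+, claudins past the threshold, the 6 with the smallest p, those with a known tissue, and per junction list the 2 smallest p-values. Members shown as range or mean beyond this rule were chosen after their values were seen. The pools are separate samples, but whether they came from separate clutches is not stated, so p-values measure the spread between these pools, which may be technical. Of the cldn5 genes both were set against endothelial markers, which was added after the files were read. Further lists (kidney tubule, ionocyte, inner ear, muscle, neuron) had no gene past adjustment, with median log2 fold changes of -0.13, -0.42, -0.26, 0.03 and 0.12. Claudin sequences are not shown.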

Additional observations from a re-analysis of the deposited data

Results flagged for a closer look

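In 4 of 64 series of 6 values (each tested claudin and the claudin sum in each genotype), one sample lay far from the other 5 by Dixon's criterion. Chance alone flags about 1 in 20 series, and the number flagged was near that share. In elmo3-/- replicate 4, cldnb was at 40.17 TPM against 22.44 to 27.69 in the other knockout samples, cldne at 27.02 against 12.21 to 17.64, and cldni at 47.92 against 30.36 to 36.55. These are 3 claudins in 1 pool, and they are not independent of each other. That pool was the highest knockout sample for 16 of 31 claudins (27.5% of all tested genes). Its sum of epidermal genes, 17577.2 CPM, lay within the knockout range of 15315.5 to 20257.9 CPM. In elmo3-/- replicate 5, cldnk was at 11.85 TPM against 7.465 to 8.877. No sample of elmo3+/+ stood out in this way, and the cause was not tested.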

How the results depend on the processing

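In all 11 fits 0 claudins passed, with 1 (surrogate variable) to 7 (replicate block) of 31 under 0.05 before adjustment. Of all genes, 5.893% and 10.55% were under 0.05 in these 2 fits. With 1 surrogate variable the median log2 fold change of the claudins became 0.0422. Among those that turned to the other sign were cldn15la (0.007873), cldnb (0.1085), cldne (0.04769), cldni (0.0422) and cldn7b (0.1177). The cause was not tested. cldn5 (ENSDARG00000014059) reversed to -0.03123 with limma on log2(TPM + 1) and -0.03517 on log2(TPM + 0.1), where 27 of 31 claudins were below 0. Total count scaling gave 25 of 31. Limma on log2(TPM + 1) called 2 of 55 other tight junction genes, magi2 and marveld3, beside 21 of 21127 genes, and each other fit called 1. For marveld3 the counts per TPM were 2.19 times as high in elmo3-/-, and its counts overlapped between genotypes. Across all genes DESeq2 called 49 against 21. Whether the replicate numbers pair the samples is not settled. Same-numbered samples deviated together with correlations from -0.289 to 0.392, 3 of 6 over 0.1. Their mean was 0.11, against -0.02 for samples of different numbers. In all, 3 elmo3+/+ and 2 elmo3-/- samples correlated best with their own number. With the replicate block 0 claudins and 1 other tight junction gene passed, with 17 genes in all. Leaving out elmo3+/+ replicate 1 kept 0 claudins called, with a smallest adjusted p of 0.221. Without the apolipoproteins apoa1a and apoa4a, dropped after seeing the data, r over 12 samples with the enterocyte sum was 0.94 for cldn15la and 0.90 for cldn15a. With 6 samples per genotype, a 1.5-fold change lay inside the interval of 13 of 31 claudins. Claudins at or under 3 counts cannot be assessed at this depth.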
